A study of Mus musculus with 4 samples.

Results

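Calcr, Cd34, Chodl, Tenm4, Sdc3, Sdc4 and Vcam1 encode cell surface proteins that are used to recognise quiescent satellite cells, the resting stem cells of skeletal muscle. Their mRNA was followed in myogenic cells taken from regenerating mouse muscle. The 7 genes were chosen by name, with earlier results of these data known. Every probe set whose platform annotation gives 1 gene symbol, that symbol being one of the 7, was read on each array. A probe set is the group of short array probes that reads 1 transcript. This gave 12 probe sets of 22690 on the array, and 7 genes of the 12394 that could be named: 1 probe set each for Calcr, Cd34, Chodl and Tenm4, 2 for Sdc4, and 3 each for Sdc3 and Vcam1.

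The mice were of the C57BL/6 strain and 8 to 12 weeks old, and their hind limb muscles were damaged with cardiotoxin. This venom toxin lyses muscle fibres, which then regenerate from satellite cells. Myogenic cells were isolated 2, 3, 5 or 14 days later, and their RNA was taken without any time in culture. The antibody SM/C-2.6, raised against satellite cells, is named in the labels without any other marker of the purification. By their labels the 4 groups share strain, age, injury and purification and differ in the day, each with 1 Affymetrix mouse 430A array. The sample records were registered in 2 sets, days 2 and 5 in one and days 3 and 14 in the other. Whether the arrays were also prepared apart is not stated. Satellite cells of uninjured muscle were not analysed here, and the sources used here do not say how many animals stand behind an array. With 1 array a day there is no replicate check and no test, and no p-value or standard error is given.

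A satellite cell rests between the muscle fibre and its basement membrane, leaves quiescence after injury, divides and differentiates, and part of its progeny returns to quiescence as the muscle is rebuilt. Calcr signals through cyclic AMP and protein kinase A and can be activated by collagen V, Vcam1 binds the integrin alpha4 beta1, and the syndecans Sdc3 and Sdc4 carry heparan sulphate chains that present growth factors and bind matrix. Cd34 is a sialomucin that is also found on endothelial and fibro-adipogenic cells, Chodl (chondrolectin) is a transmembrane protein of the C-type lectin family, and Tenm4 is a teneurin, a large adhesion protein that binds latrophilins.

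The sequence just before the transcription start is shown for the 4 members whose signal spanned more than 10-fold over the days, to set the sequence beside the widest changes in transcript level. The sequences come from RefSeq (mouse assembly GRCm38.p6), through a promoter table in which 6 of the 7 members matched, with 8 windows in all; the member without a match there was Vcam1. Each line gives the 250 bases before the start on the gene's own strand. Capitals mark matches on either strand to the E-box CANNTG, the core letters read by myogenic basic helix-loop-helix factors, or to TGGGAA, the core letters of RBPJ, the DNA-binding partner of Notch.
Calcr, chr6:3764714-3764963, minus strand: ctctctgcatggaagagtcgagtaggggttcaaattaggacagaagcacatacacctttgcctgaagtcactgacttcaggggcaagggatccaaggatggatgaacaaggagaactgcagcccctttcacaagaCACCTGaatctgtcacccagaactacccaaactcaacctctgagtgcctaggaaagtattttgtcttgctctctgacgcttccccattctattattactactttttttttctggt
Cd34, chr1:194938571-194938820, plus strand: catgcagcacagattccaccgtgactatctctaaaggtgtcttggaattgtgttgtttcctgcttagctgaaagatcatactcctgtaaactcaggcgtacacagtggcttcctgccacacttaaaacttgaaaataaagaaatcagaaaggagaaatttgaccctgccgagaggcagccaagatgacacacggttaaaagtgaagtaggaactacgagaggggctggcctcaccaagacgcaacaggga
Chodl, chr16:78930698-78930947, plus strand: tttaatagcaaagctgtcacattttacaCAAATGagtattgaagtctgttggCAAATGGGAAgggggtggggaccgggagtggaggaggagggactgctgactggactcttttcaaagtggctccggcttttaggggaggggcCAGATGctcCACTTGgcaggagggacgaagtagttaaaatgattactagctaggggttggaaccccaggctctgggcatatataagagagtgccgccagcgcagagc
Tenm4, chr7:96170994-96171243, plus strand: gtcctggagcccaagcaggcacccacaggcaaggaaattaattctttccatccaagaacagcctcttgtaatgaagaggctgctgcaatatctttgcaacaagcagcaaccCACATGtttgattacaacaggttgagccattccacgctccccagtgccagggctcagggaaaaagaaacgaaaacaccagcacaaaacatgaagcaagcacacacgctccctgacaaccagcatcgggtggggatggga
The Calcr, Cd34 and Tenm4 windows precede the outermost annotated start of their gene, and the Chodl window precedes a start inside the gene. Chodl held 4 E-box matches, which began 98, 107, 198 and 222 bases before the start, and 1 RBPJ core match at 194 that overlaps the E-box at 198. Calcr held 1 E-box match, CACCTG at 115 bases, and Tenm4 held 1, CACATG at 139 bases, while Cd34 held neither motif. Of 32851 RefSeq promoter windows of the same length, 66.2% held an E-box match and 21.6% an RBPJ core match, so a single E-box match sets no promoter apart. Of the other motifs searched on both strands, TGANTCA (AP-1) and TGACGTCA (the cyclic AMP response element) matched in none of the 8 member windows, and GGAATG (TEAD) matched in the Tenm4 window alone, at 112 bases. Their shares over all windows were 6.75%, 1.55% and 12.6%. A second Calcr window, at chr6:3763624-3763873, and the windows of Sdc3 and Sdc4 held none of the 5 motifs, and a second Tenm4 window, at chr7:96211421-96211670, held 3 E-box matches. Base composition differed widely, from 46.0% G and C in the Calcr window shown and 46.4% in Cd34 to 68.0% in Sdc4 and 76.4% in Sdc3. The median over all windows was 52.4%. The second Calcr window held 70.8%, so composition also differed between windows of the same gene. These matches describe letters and not bound sites.

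Signals are MAS5 signals in arbitrary units, scaled so that the arrays share a trimmed mean. The pooled median of the scaled signals, 43.0, served as a floor, and lower values were raised to it. Where one array of a ratio is at the floor, the ratio is a lower bound, written "at least". Where both are, the gene was not measured there. A gene counts as higher or lower when its ratio is 2-fold or more, and a gene with several probe sets is represented by the brightest one. The scaled array medians ran from 29.5 on day 2 to 52.8 on day 14, and the number of genes above the floor from 6258 to 7439. The signal of Gapdh near its 3' end over that near its 5' end, a measure of RNA integrity, was between 1.88 and 2.17 on days 2 and 3 and was 2.87 and 2.84 on days 5 and 14. The same measure for beta-actin was 1.80 on day 2 and between 2.14 and 2.20 on the other days, without that split. Where a gene has several probe sets, their log2 ratios differed with an SD of 0.36, 0.37 and 0.32 at the 3 successive steps and 0.55 for day 14 against day 2. This is the only spread the arrays offer, and it leaves out the spread between animals and labelling reactions. Markers of myogenic cells were above the floor for 10, 13, 12 and 12 of 13 genes on days 2, 3, 5 and 14. Pax7, which marks satellite cells, was at 35.7, 59.4, 216.8 and 323.2, and so under the floor on day 2, while Myod1, Myog, Myf5 and Des were above it on all 4 arrays. Lymphocyte and erythroid markers were under the floor on all 4 arrays, for 8 of 8 and 3 of 3 genes.

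The markers were highest late. On day 14, 6 of the 7 members had their highest signal of the series. The exception was the brightest Sdc3 probe set, which peaked on day 5. The share of all genes that were highest on day 14 was not computed. That array also had the highest scaled median, 52.8, and the most genes above the floor, 7439, so this count does not set the members apart. Chodl spanned at least 72.7-fold between its lowest and highest day, Tenm4 at least 18.2-fold, Calcr at least 14.3-fold and Cd34 at least 12.2-fold. Sdc4, Vcam1 and Sdc3 spanned 2.82-fold, 2.58-fold and 2.44-fold. In RNA from a cell population, more cells of a kind and more RNA per cell cannot be told apart.

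**Figure D1:**
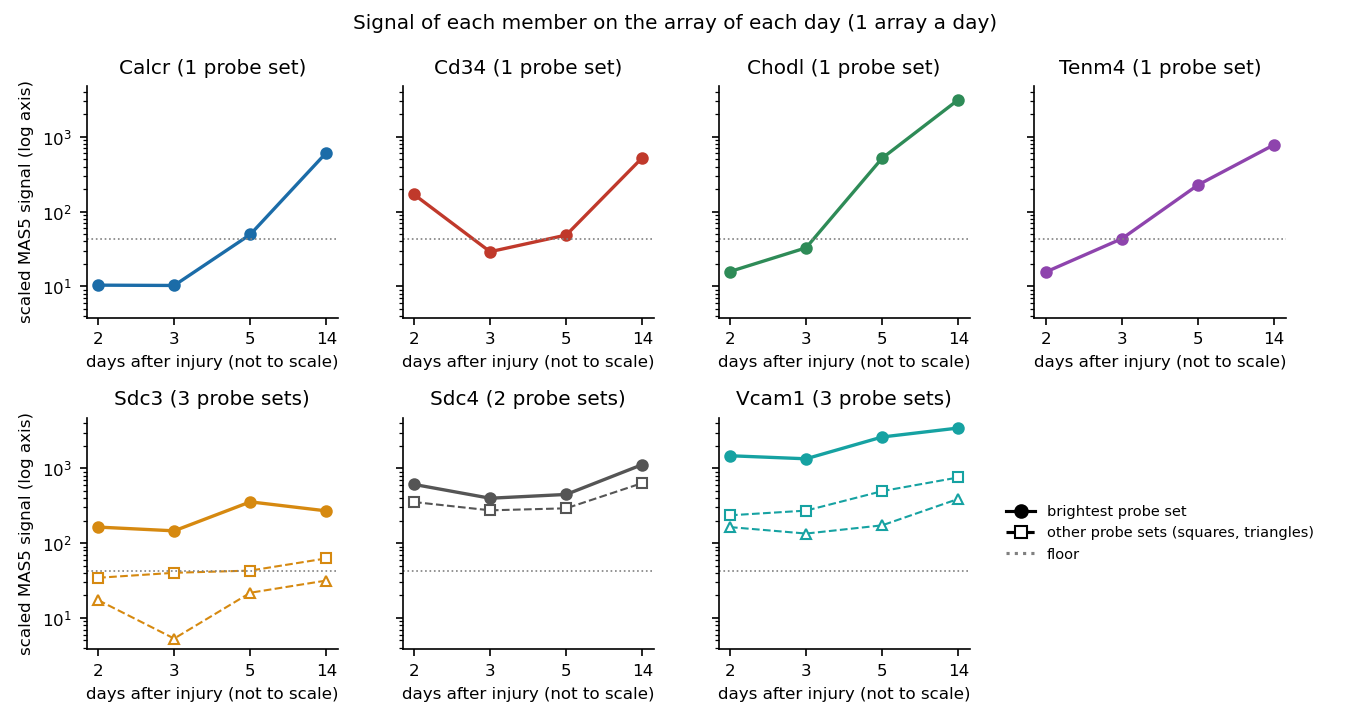
Scaled MAS5 signal (log axis, arbitrary units) of each member on the array of each day, with days evenly spaced and not to scale. Each point is 1 array; filled circles are the brightest probe set, open symbols the other probe sets of the gene, and the dotted line is the floor of 43.0. Calcr, Chodl and Tenm4 lie below or level with the floor on days 2 and 3 and reach 614.7, 3122.7 and 783.3 on day 14, Cd34 has its lowest signal on day 3, and the brightest probe sets of Sdc3, Sdc4 and Vcam1 span 2.44-fold, 2.82-fold and 2.58-fold.

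The days were compared one after the other to see at which step of regeneration each marker changed, and day 14 was set against day 2 for the whole course. Neighbouring comparisons share an array, so each is given by its own values. From day 2 to day 3, 5 members were measured and Calcr and Chodl were not. Of the 5, 0 were higher, where 6.69% of 6991 measured genes were, and 1, Cd34, was lower, where 1.8% of genes were. The median log2 ratio of the members was -0.17 and that of all genes 0.06. With the floor at the 25th percentile of all signals, both Tenm4 and Chodl were higher at this step, with log2 ratios of 1.48 and 1.05.

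At the next step the direction was upward. From day 3 to day 5, 3 of 7 members (Chodl, Tenm4 and Sdc3) were higher, against 11.6% of 7523 genes, and 0 were lower, against 5.97% of genes. Their median log2 ratio was 0.97, with 0.06 for all genes. Vcam1 missed the 2-fold threshold at 1.96-fold, a log2 ratio of 0.97. Both this value and the 1.29 of Sdc3 lie closer to the threshold than the SD of 0.37 between probe sets, so their sides of it are not firm. Calcr and Cd34 crossed the floor without more than a bound, at least 1.15-fold and at least 1.13-fold.

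The last interval, which is also the longest, held the most changes among the members. From day 5 to day 14, 5 of 7 members (Calcr, Cd34, Chodl, Tenm4 and Sdc4) were higher, against 4.81% of 7709 genes, and 0 were lower, against 3.1% of genes. The median log2 ratio was 1.78 in the members and 0.01 in all genes. Over the whole course from day 2 to day 14, 5 of 7 were higher (Chodl, Tenm4, Calcr, Cd34 and Vcam1), against 22.8% of 7668 genes, and 0 were lower, against 14.8% of genes. The members' median was 1.63 with 0.20 for all genes. By the same spread, Sdc4 on day 14 against day 5 (log2 ratio 1.32, SD 0.32) lies about 1 SD from the threshold. Vcam1, Sdc4 and Sdc3 on day 14 against day 2 (1.23, 0.88 and 0.72, SD 0.55) lie within 1 SD of it. The members were chosen with earlier results of these data known, so these shares are a description and no independent support. They were not tested.

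All 4 of these comparisons set arrays of different registration sets against each other, so set and day cannot be told apart in them. Within a set, day 5 against day 2 had 3 of 7 members higher (Chodl, Tenm4 and Sdc3), against 19.8% of 7445 genes, and 1 lower (Cd34), against 11.4% of genes. Their median log2 ratio was 0.83, with 0.16 for all genes. Day 14 against day 3 had 6 of 7 members higher, all but Sdc3, against 16.3% of 7774 genes, and 0 lower, against 11.5% of genes. The medians were 3.61 and 0.09. The lower Cd34 and the higher Chodl and Tenm4 are therefore also read between arrays of 1 set. Some ratios lie within 1 SD between probe sets of the 2-fold threshold. On day 5 against day 2 they are Sdc3 and Vcam1 (log2 ratios 1.12 and 0.83, SD 0.46). On day 14 against day 3 they are Vcam1 and Sdc3 (1.37 and 0.89, SD 0.47).

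**Figure D2:**
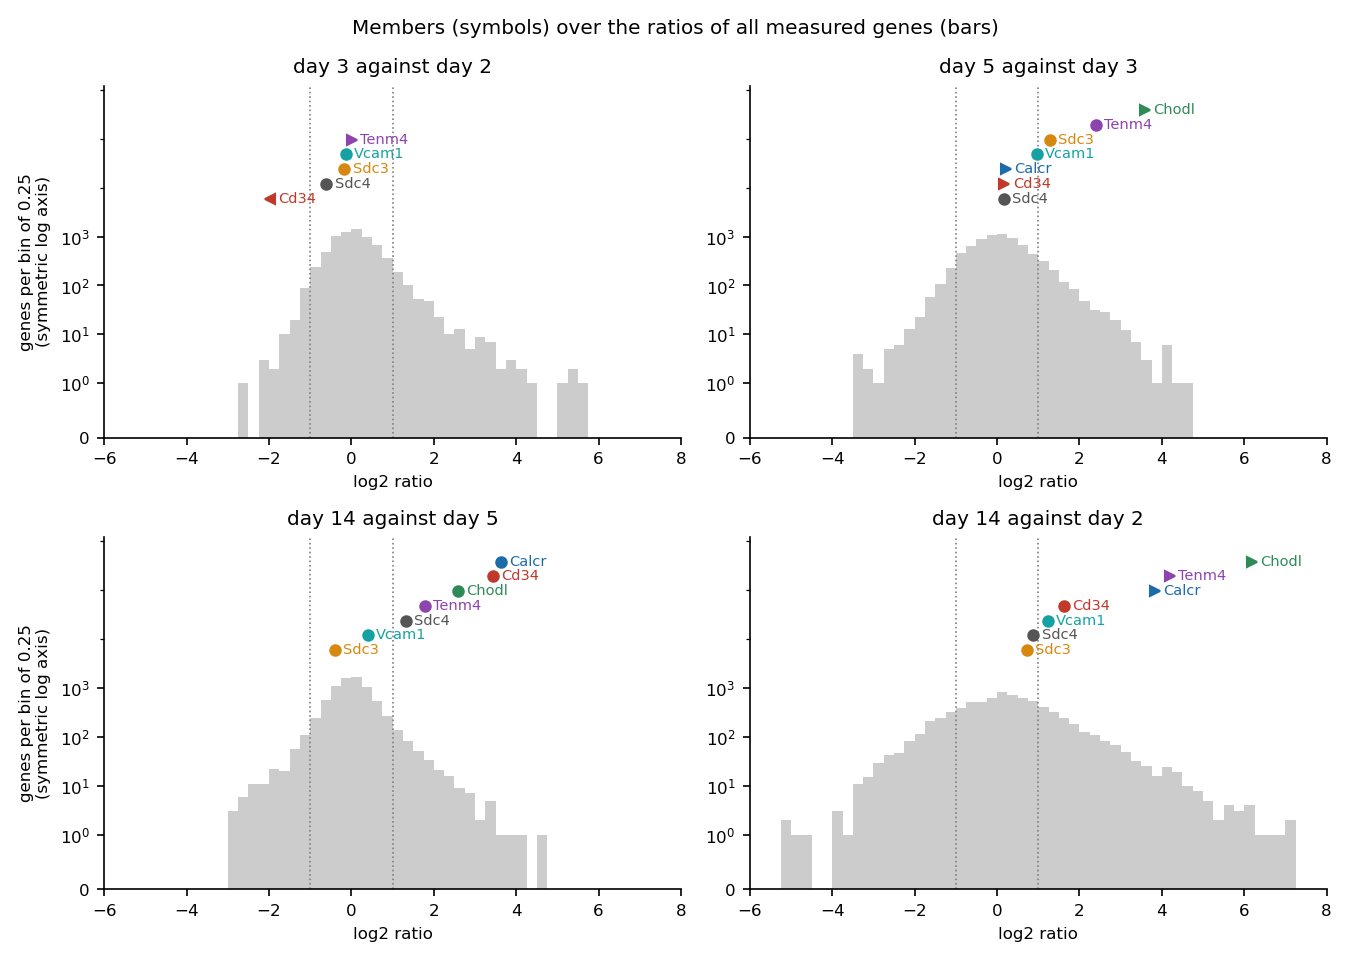
Log2 ratios of the members (coloured symbols, stacked only for legibility; circles are ratios and triangles lower bounds) above the ratios of all measured genes (grey bars, genes per bin of 0.25 on a symmetric log axis) in 4 comparisons; dotted lines mark 2-fold. Members lie among the lowest ratios only for Cd34 on day 3 against day 2, and 5 members lie right of the upper 2-fold line on day 14 against day 5 and on day 14 against day 2.

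Calcr had no signal above the floor before day 5. Its scaled signals were 10.4, 10.3, 49.5 and 614.7 on days 2, 3, 5 and 14. Days 2 and 3 lay at about the same low value, day 5 stood just over the floor, and the day 14 array stood apart from the other 3. From day 5 to day 14 the ratio of signals was 12.4-fold, which ranked 4 of 7709 measured genes from the top. Against day 2 the bound was at least 14.3-fold, ranked 93 of 7668. The step from day 3 to day 5 depends on the floor: with the floor at the 25th percentile of all signals, its log2 ratio was 2.26 in place of 0.21.

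The other genes of the calcitonin receptor pathway were read from a list of receptor partners, cyclic AMP signalling genes and collagen V chains. On day 5, 9 of 18 measured genes were higher than on day 3 and 0 lower (median log2 ratio 0.95). In the last interval, when Calcr itself changed most, 2 of 20 were higher and 0 lower (median 0.19). Those 2 were Pde4b, a phosphodiesterase that breaks down cyclic AMP and is induced by it, at 5.25-fold, and Crem, a transcription factor of the cyclic AMP response, at 2.44-fold. Pde4b had signals of 178.4, 162.6, 300.1 and 1576.2 on days 2, 3, 5 and 14, and so shares its late position with Calcr. Crem was at 37.6, 44.2, 107.2 and 261.0 on these days, and was already 2.42-fold higher on day 5 than on day 3. Collagen V is a Calcr ligand. Its chains Col5a1 and Col5a2 were above the floor on all 4 arrays, and Col5a3 from day 3 on. Col5a1 was at 137.6, 1085.3, 4112.2 and 2389.0, and Col5a2 at 1494.2, 2496.2, 5724.4 and 4663.9, both highest on day 5. Col5a3 was at 22.6, 217.5, 705.6 and 1088.9, highest on day 14 as Calcr was. On day 14 the 3 chains were 17.4-fold, 3.12-fold and at least 25.4-fold higher than on day 2. In the list as a whole, 3 of 18 genes were higher from day 2 to day 3 (median log2 ratio 0.10). From day 2 to day 14, 12 of 20 were (median 1.38), with 0 lower in both. Over all genes, 6.69%, 11.6% and 4.81% were higher at the 3 successive steps, and 22.8% from day 2 to day 14. The shares that were lower were 1.8%, 5.97%, 3.1% and 14.8%. All list counts below stand beside these shares.

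Of the receptor activity modifying proteins, which change the ligand preference of Calcr, only Ramp2 was read. Its signal was 154.4, 88.1, 674.4 and 893.9 on days 2, 3, 5 and 14. Ramp1 and Ramp3 were under the floor on all 4 arrays, at up to 27.5 and 38.1. Calcrl, the related receptor that also pairs with these proteins, was above the floor on day 14 alone, at 49.5. Ramp2 and Calcrl are abundant in endothelium, and Ramp2 is among the endothelial markers described with Cd34.

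Cd34 was the only member called lower at any step. Its signals were 169.4, 29.1, 48.6 and 525.7 on days 2, 3, 5 and 14. The days 3 and 5 were low, day 2 intermediate and day 14 high, so that the order differs from that of every other member with a single probe set. Day 3 was at least 3.94-fold lower than day 2, ranked 5 of 6991 from the bottom. Day 5 was 3.48-fold lower than day 2, so the low reading was not limited to 1 array. Day 14 was 10.8-fold higher than day 5, ranked 6 of 7709, but 3.1-fold higher than day 2, ranked 901 of 7668. That last call was lost when arrays were scaled to a common median, with a log2 ratio of 0.79 in place of 1.63. Under that scaling the median of all genes moved from 0.20 to -0.57, and relative to it Cd34 stood at 1.36, against 1.43 otherwise.

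Cd34 also marks endothelium, and endothelial markers were read beside it. Of 18 endothelial markers, 1, 3, 5 and 13 were above the floor on days 2, 3, 5 and 14, and their summed signal was 368.0, 451.8, 1209.2 and 2275.7. The list was therefore lowest on day 2, when Cd34 had its intermediate signal, and highest on day 14. Ramp2 alone held 154.4, 88.1, 674.4 and 893.9 of the summed signal. Between days 5 and 14, 6 of 13 measured markers were higher (median log2 ratio 0.55), against 4.81% of all genes. The defining adhesion proteins Pecam1 and Cdh5 were under the floor on all 4 arrays, Pecam1 at 38.4 on day 14, and Kdr, the vascular growth factor receptor, reached 59.1 there. Other endothelial genes were higher on day 14 than on day 5: the tight junction gene Cldn5 at least 3.44-fold (to 147.8), the angiopoietin receptor Tek 2.5-fold (to 214.1), and Esam 2.37-fold. Plvap, Ptprb and Vwf were at least 2.26-fold, 2.23-fold and 2.07-fold higher. Fibro-adipogenic markers, another possible source, had a summed signal of 1592.5, 2418.8, 9436.9 and 14477.7. In the last interval 2 of these 11 were higher and 1 lower (median log2 ratio -0.17), and Dpt alone went from 1430.3 to 5877.4. The part of these cells in the Cd34 signal was not tested.

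**Figure D3:**
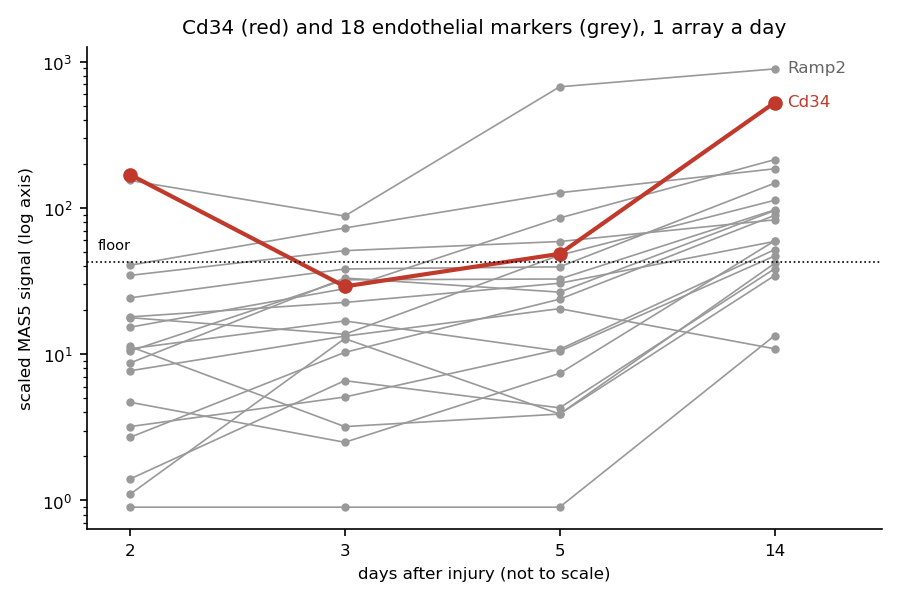
Scaled MAS5 signal (log axis, arbitrary units) of Cd34 (red) and of 18 endothelial markers (grey) on the array of each day, with days evenly spaced; levels of different probe sets cannot be compared, only their courses. Cd34 goes from 169.4 on day 2 to 29.1 on day 3 and 525.7 on day 14, while Ramp2 is the only endothelial marker above the floor (dotted) on day 2 and 13 of 18 are above it on day 14.

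The relatives of Cd34 had other courses. Podxl, a sialomucin of the same family, was at 133.0, 97.9, 52.8 and 170.8, lowest on day 5 where Cd34 was lowest on day 3. In the last interval 2 of 7 genes of the family and its cytoplasmic partners were higher, Podxl by 3.23-fold and the adaptor Slc9a3r1, and 0 were lower (median log2 ratio 0.55). At the first step 0 of 5 were called, with a median of -0.26. At the second, 1 of 6 was lower and 0 higher (median -0.18), and from day 2 to day 14, 1 of 7 was higher and 1 lower (median 0.36). The gene that was higher over the whole course was Slc9a3r1, by 2.37-fold, and the one that was lower was Ezr, which links membrane proteins to actin, by 4.62-fold.

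Chodl covered the widest range of the members. On days 2, 3, 5 and 14 the signals were 15.8, 32.8, 517.2 and 3122.7. Days 2 and 3 were under the floor, and both later arrays stood well above all earlier ones. The ratio of day 5 to day 3 was at least 12.0-fold, ranked 11 of 7523. The ratio of day 14 to day 5 was 6.04-fold, ranked 24 of 7709, and against day 3 the bound of at least 72.7-fold ranked 2 of 7774. Calcr and Cd34 ranked as high in the last step alone. Of 4 C-type lectin relatives measured from day 2 to day 14, 3 were higher and 0 lower (median log2 ratio 1.96). Of all genes, 22.8% were higher. All 4 ratios are lower bounds, with day 2 under the floor. The higher ones were Clec11a, a secreted growth factor of bone marrow, at least 5.96-fold, Thbd (thrombomodulin), at least 4.13-fold, and Cd93, at least 3.64-fold. The part of endothelial and other cells in these signals was not tested. In the last interval 1 of 4 of these relatives was higher (median 0.27), after 2 of 3 from day 3 to day 5 (median 1.45) and 1 of 2 from day 2 to day 3.

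Tenm4 was called higher at both steps after day 3. On days 2, 3, 5 and 14 it was read at 15.6, 43.5, 227.3 and 783.3. Day 2 was under the floor and day 3 level with it, so the first step is a bound of at least 1.01-fold, and the later arrays stood apart from each other and from both. Day 5 was 5.22-fold higher than day 3, ranked 96 of 7523. Day 14 was 3.45-fold higher than day 5, ranked 93 of 7709, and at least 18.2-fold higher than day 2. A floor at the 75th percentile of all signals, 203.5, left a log2 ratio of 0.16 for day 5 against day 3 in place of 2.39, because the day 5 signal is near that floor.

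Among the other teneurins, Tenm3 was read and Tenm1 and Tenm2 were under the floor on all arrays. Tenm3 had signals of 86.1, 78.5, 227.3 and 247.3, with its change between days 3 and 5 and little after. Of the 3 measured genes of teneurins, latrophilins and their partners, 2 were higher from day 3 to day 5 (median log2 ratio 1.40) and 0 of 3 from day 5 to day 14 (median 0.12). At the first step 0 of 3 were called (median 0.50). Over the whole course all 3 were higher (median 1.56): Dag1 (dystroglycan) by 3.46-fold, the latrophilin Adgrl1 by 2.95-fold and Tenm3 by 2.87-fold.

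Between days 3 and 5, when Chodl, Tenm4 and Sdc3 were called higher, markers of several other cell types were higher too. The fibroblast and fibro-adipogenic list had 9 of 10 measured genes higher, the mural list 5 of 8, and the macrophage and myeloid list 9 of 16. In each, 0 were lower. Of all genes, 11.6% were higher and 5.97% lower. These 3 lists were also followed by their sums. Their summed signals went from 2418.8 to 9436.9, from 4242.8 to 11278.5 and from 1476.4 to 4332.6. On day 2 these sums were 1592.5, 912.3 and 405.1, and on day 14 they were 14477.7, 11330.1 and 3676.5. Single bright genes carry large parts of these sums. In the mural list Acta2 was at 3595.7 on day 3 and 7743.8 on day 5, and in the macrophage list Lyz1 was at 510.3 and 1980.0. In the fibroblast list Dpt was at 1430.3 on day 5 and 5877.4 on day 14. The mural list includes Rgs5 and Notch3, which satellite cells also express. Of defining markers, Pdgfra was at 11.1, 41.7, 105.3 and 104.1, Pdgfrb at 14.8, 66.7, 321.7 and 235.8, Csf1r at 20.2, 91.0, 315.7 and 268.9, and Ptprc at 13.1, 14.1, 59.7 and 54.5. Markers of Schwann cells were above the floor in 1, 2, 1 and 2 of 5 genes. Between days 5 and 14, when Calcr, Cd34, Chodl, Tenm4 and Sdc4 were called higher, 6 of 13 endothelial markers were higher and 0 lower, 0 of 16 macrophage markers were called, 2 of 11 in the fibroblast and fibro-adipogenic list were higher with 1 lower, and 2 of 9 mural markers were higher. Of all genes, 4.81% were higher and 3.1% lower in that interval. The part of these cell types in the members' signals was not tested.

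Vcam1 was read well above the floor on every day by all 3 of its probe sets. The brightest had signals of 1470.5, 1338.3, 2618.0 and 3449.8 on days 2, 3, 5 and 14. A second had 235.2, 271.7, 494.8 and 754.2, and the third 163.6, 134.1, 172.7 and 389.6. All 3 agree that day 14 was the highest and that days 2 and 3 were close, but they place the change differently. From day 3 to day 5 they gave 1.96-fold, 1.82-fold and 1.29-fold, and from day 5 to day 14 1.32-fold, 1.52-fold and 2.26-fold. Over the whole course they were closer, at 2.35-fold, 3.21-fold and 2.38-fold higher on day 14 than on day 2. With arrays scaled to a common median, the log2 ratio of the brightest fell from 1.23 to 0.39 for that comparison, under 2-fold, and relative to the median of all genes it was 1.03 and 0.96.

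The partners of Vcam1 were called in some comparisons and not in others. Itga4, the alpha4 chain of its integrin receptor, was under the floor on all 4 arrays. Icam1, an adhesion protein of the same superfamily, was at 60.2, 37.4, 115.1 and 154.7. In the list of Vcam1 receptors and NF-kB genes, which regulate it, 0 of 12 were called from day 2 to day 3 and 0 of 12 from day 5 to day 14, with median log2 ratios of -0.26 and 0.03. From day 3 to day 5, 4 of 12 were higher and 1 lower (median 0.75), and the same numbers held from day 2 to day 14 (median 0.30). Over all genes, 11.6% were higher and 5.97% lower from day 3 to day 5, and 22.8% and 14.8% from day 2 to day 14. Il4ra, a receptor of a cytokine that induces Vcam1 in endothelium, was 3.6-fold and Rela, a subunit of NF-kB, 3.41-fold higher over the whole course.

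Sdc4 was read by 2 probe sets that ran in parallel. The brighter had signals of 608.6, 397.7, 447.0 and 1119.5 on days 2, 3, 5 and 14, and the other 353.7, 274.1, 291.6 and 634.6. In both, days 3 and 5 were lowest and close together, day 2 lay above them and day 14 stood apart. On day 3 the signals were 1.53-fold and 1.29-fold lower than on day 2, neither past 2-fold. On day 14 they were 2.5-fold and 2.18-fold higher than on day 5, both past it. Over the whole course the increase was 1.84-fold and 1.79-fold, short of 2-fold. Sdc4 thus followed the order of days seen for Cd34, with a far smaller range: its lowest and highest signals differed by 2.82-fold.

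Sdc3 was the member whose probe sets disagreed. The brightest had signals of 163.7, 145.8, 355.8 and 269.4, highest on day 5. A second, designed from the same transcript record, had 34.4, 40.1, 42.9 and 62.5 and was above the floor on day 14 alone, and the third was under the floor on all arrays. The brightest was 2.44-fold higher on day 5 than on day 3, ranked 526 of 7523. In the last interval it was 1.32-fold lower, while the second was at least 1.45-fold higher. With the mean over the probe sets of a gene, the log2 ratio of Sdc3 was 0.43 in place of 1.29 for day 5 against day 3 and 0.05 in place of -0.40 for day 14 against day 5. A peak of Sdc3 on day 5 therefore rests on 1 probe set.

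The related Sdc1 and Sdc2 were highest on day 5. Sdc1 was at 370.0, 452.6, 1009.0 and 267.6 on days 2, 3, 5 and 14, and Sdc2 at 572.8, 567.5, 1401.1 and 889.9. Together with matrix and growth factor partners of the syndecans, members left out, 7 of 12 measured genes were higher and 0 lower from day 3 to day 5 (median log2 ratio 1.08). In the last interval 1 was higher and 4 were lower (median -0.67), among them the matrix glycoprotein Tnc by 6.19-fold and Sdc1 by 3.77-fold. Sdc4 was higher in that interval. At the first step 2 of 10 were higher and 0 lower (median 0.40), and from day 2 to day 14, 5 of 11 were higher and 0 lower (median 0.84), led by vitronectin (Vtn) at least 12.5-fold and fibronectin (Fn1) 11.7-fold.

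The enzymes that build and edit heparan sulphate, the sugar chain of the syndecans, were also called mainly on day 5. From day 3 to day 5, 4 of 12 were higher and 0 lower (median log2 ratio 0.80), and from day 5 to day 14, 0 were higher and 1 lower (median -0.28). At the first step 0 of 10 were called (median 0.46). From day 2 to day 14, 3 of 12 were higher and 0 lower (median 0.84). Of all genes, 22.8% were higher over that course, so this count does not set the list apart. The chain polymerases Ext2 and Ext1 were 3.48-fold and 3.34-fold higher on day 14 than on day 2.

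Other surface proteins known from satellite cells were read as a further list. Between days 5 and 14, 2 of 24 were higher and 2 lower (median log2 ratio 0.23), against 4.81% and 3.1% of all genes. Of the 7 members 5 were higher in that interval, and the difference was not tested. Over the first step 4 of 23 were higher and 0 lower (median 0.49), and from day 3 to day 5, 5 of 24 were higher and 0 lower (median 0.63). Over the whole course 14 of 24 were higher and 2 lower (median 1.59). The largest increases were those of the receptor Notch3, 21.1-fold, and of Fgfr1, a fibroblast growth factor receptor, 12.1-fold. Notch3 is also on the mural list. The 2 decreases were in Cdh2 (N-cadherin), 3.85-fold, and in the hyaluronan receptor Cd44, 3.54-fold.

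Nuclear and signalling regulators of satellite cell quiescence gave the largest number of higher genes among the 9 lists at each step. The lists differ in size. By share the C-type lectin list, with 1 of 2 and then 2 of 3 higher, stood above the regulators at the first 2 steps. The teneurin and latrophilin list did so at the second step, with 2 of 3, and over the whole course, with 3 of 3. From day 2 to day 3, 7 of 22 were higher and 0 lower (median log2 ratio 0.69), from day 3 to day 5, 14 of 23 and 0 (median 1.21), and from day 5 to day 14, 11 of 23 and 1 (median 0.82). Over the whole course 21 of 23 were higher and 0 lower (median 2.81). Of all genes, 6.69%, 11.6% and 4.81% were higher at the 3 successive steps and 22.8% over the whole course. The list was chosen with earlier results of these data known, and the difference was not tested. The antiproliferative gene Btg2, at 43.9, 100.4, 431.3 and 3133.7, was 71.5-fold higher on day 14 than on day 2. Rgs5, a regulator of G-protein signalling, was at least 46.5-fold higher. Rgs5 is also on the mural list, of which 8 of 9 measured genes were higher over the whole course. The part of mural cells in its signal was not tested. In the same arrays, 11 of 11 cell cycle genes were lower on day 14 than on day 2. Of the myogenic regulators, Myf5 was at 298.2, 468.6, 979.1 and 2081.3 and Myod1, which marks activated cells, at 2271.7, 1404.8, 500.2 and 935.0. Myog, which marks differentiating cells, was at 261.0, 3876.2, 1838.8 and 1834.7. The array with the highest signals of most markers thus also held signal of Myog.

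**Figure D4:**
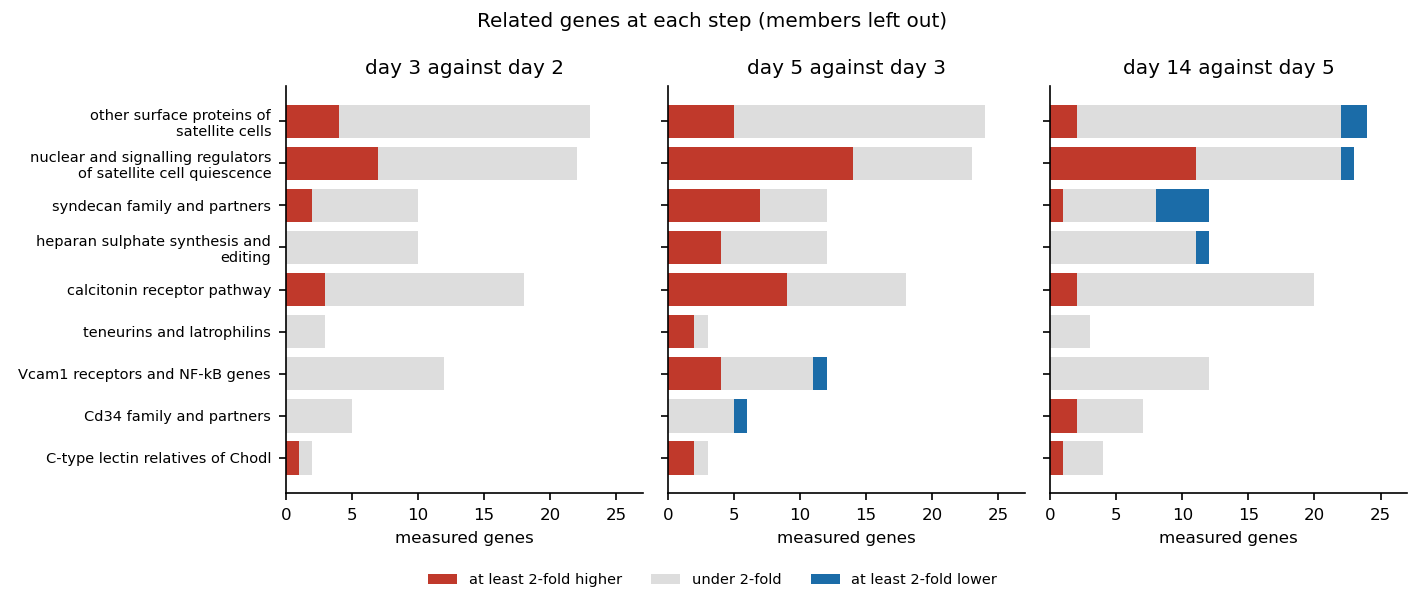
Measured genes of 9 lists related to the members (members left out) at each step: bars are numbers of genes, red at least 2-fold higher, blue at least 2-fold lower, grey under 2-fold. Red bars are widest on day 5 against day 3 for most lists, and on day 14 against day 5 the regulators of quiescence have 11 of 23 genes higher while the syndecan list has 4 of 12 lower.

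The courses of the members were compared by the root mean square difference of their floored, centred log2 signals over the 4 arrays. This measure depends on few points and carries no test. Among the members, Sdc3 and Vcam1 were the closest pair, at 0.29, followed by Sdc4 and Vcam1 at 0.47. Of the members with a wide range, Chodl and Tenm4 were 0.85 apart and Calcr and Cd34 0.90. Chodl and Sdc4 were the farthest apart, at 2.24. The members thus differed in course, also among the 6 that were highest on day 14.

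Among 7923 genes compared in this way, the number with a course close to that of a member separated the members again. Within 0.5 of Cd34 there were 0 genes, within 0.5 of Chodl 2, of Calcr 17 and of Tenm4 43. For Sdc4, Vcam1 and Sdc3, whose signals changed little, there were 1435, 2849 and 2854. A small range gives many neighbours, so the nearest genes say least for these 3. Signals at the floor count as equal, so genes under it on the same days match there by construction. Calcr and Chodl were at the floor on days 2 and 3, and Chrdl2 was above it on 1 array alone. Nearest to Calcr were the copper-binding ferroxidase Cp at 0.08, Chrdl2 at 0.13 and the basement membrane collagen Col15a1 at 0.14. Nearest to Tenm4 were Medag at 0.03, Rcan2 at 0.07 and the transcription factor Cebpd at 0.14. Nearest to Chodl were the transporter Abca8a at 0.30, the apolipoprotein Apoe at 0.49 and Nrep at 0.51, and nearest to Cd34 the cytokine Clcf1 at 0.57, Zfp503 at 0.66 and Tent5c at 0.66. Nearest to Sdc3 were Crtap and Slc25a30 at 0.05 and Sel1l at 0.06, nearest to Sdc4 Hdgfl3 at 0.07, Khk at 0.08 and Lcmt2 at 0.09, and nearest to Vcam1 Abcc5 at 0.03, Gpsm1 at 0.04 and Chmp1b at 0.05.

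The values of the members were recomputed under 7 other settings of the scaling, the floor and the choice of probe set. Of 40 measured ratios in 6 comparisons, 24 were called, and none of these changed sign in any of these settings. The calls of Calcr, Cd34, Chodl, Tenm4 and Sdc4 for day 14 against day 5 were kept in all of them. The calls of Cd34 and Vcam1 for day 14 against day 2 were lost with median scaling, as given above, and those of Tenm4 for day 5 against days 3 and 2 at the higher floor. That of Sdc3 for day 5 against day 3 was lost in 2, with a log2 ratio of 0.81 at the higher floor and 0.43 with the mean over probe sets. Its call for day 5 against day 2, a log2 ratio of 1.12, was lost in 5, at values of 0.37 to 0.99. At the higher floor Cd34 was under the floor on days 2, 3 and 5, so its lower calls have no value there.

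**Figure D5:**
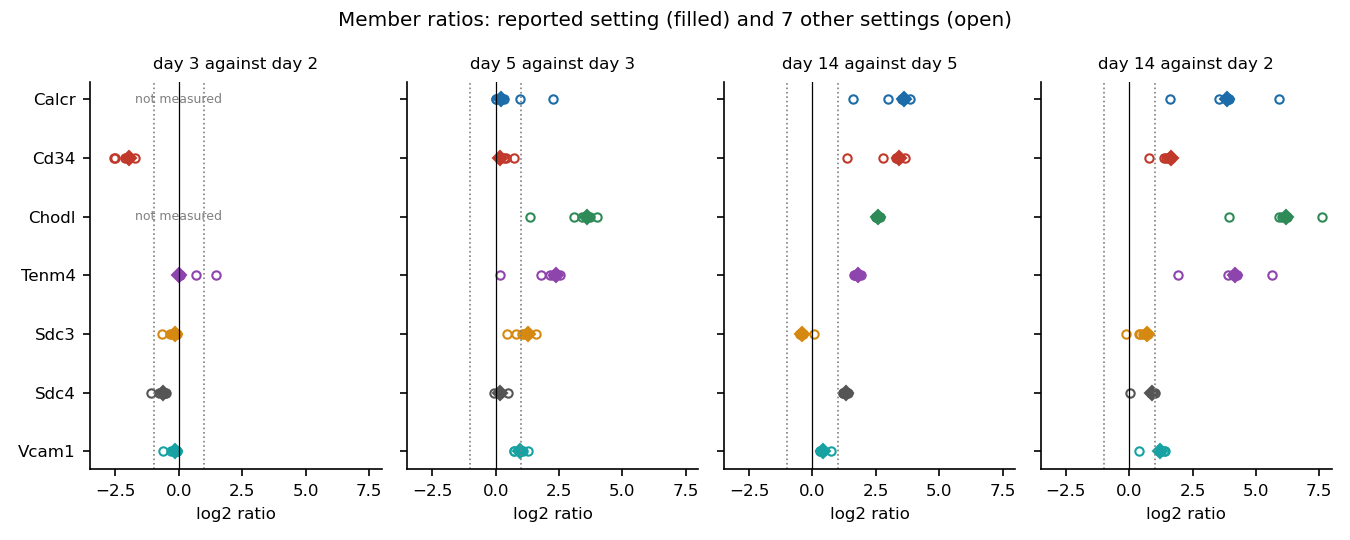
Log2 ratio of each member in 4 comparisons in the reported setting (filled diamonds) and in up to 7 other settings of scaling, floor and probe set choice (open circles); dotted lines mark 2-fold and the solid line no change. For day 14 against day 5 the points of Calcr, Cd34, Chodl, Tenm4 and Sdc4 all lie right of the upper 2-fold line, and the widest spread is that of Chodl and Calcr for day 14 against day 2, where the floor sets the bound.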

How the data were processed

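RNA of myogenic cells was measured on 4 arrays, 1 each for days 2, 3, 5 and 14. The deposited values are signal intensities on a linear scale, 1 per probe set and array, made by the authors with MAS5, per the submitters' processing notes; the sources used here do not give its settings. Extraction used a silica column kit and labelling with biotin a small sample assay, per the labels' protocols, whose amplification favours 3' ends.

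Each array was scaled to a common 2% trimmed mean (factors 0.997, 1.133, 0.917 and 0.976 on days 2, 3, 5 and 14). Signals under the pooled median, 43.0, were set to it, log2 was taken and arrays were subtracted; list medians hold bounds at their value. Of the probe sets, 20393 have 1 gene symbol in the platform annotation, 691 several and 1606 none here; the latter 2 kinds were left out. All 7 member gene IDs are in the RefSeq table. Genes named are the members with all their probe sets, the 3 genes nearest in course to each, up to 2 increases and 2 decreases per related list for day 14 against day 2, partners of the members and defining cell markers; Col5a2, the endothelial genes called on day 14, Pde4b, Crem and Tnc at other steps were chosen after their values were seen. The members and lists were chosen with earlier results of these data known. Alternatives covered scaling, floor, probe set choice and the fold that counts as called. The script was tested on simulated data. Arrays give no depth; their number limits the precision. Python 3.11.15, numpy 2.4.6 and pandas 2.3.3 were used.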

Additional observations from a re-analysis of the deposited data

How the results depend on the processing

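Of 270 values of the members' ratios under other settings, 247 kept their direction and their side of 2-fold, 11 fell below 2-fold, 9 rose past it, 3 uncalled ones changed sign, and 0 called ones did. For day 14 against day 5, 5 members were called and the 9 alternatives gave 5, or 4 at a 3-fold threshold. For day 3 against day 2 the count of 1 became 2 with arrays scaled to a common median, 3 with the floor at the 25th percentile, 0 with the floor at the 75th (203.5) and 2 at a 1.5-fold threshold. For day 5 against day 3 the count of 3 became 1 with the floor at the 75th percentile, and for day 14 against day 2 the count of 5 became 3 with median scaling, which lost Cd34 and Vcam1. Alternatives for the comparisons within a registration set were chosen after seeing the data: the 4 calls of day 5 against day 2 became 1 with the floor at the 75th percentile, and the 6 of day 14 against day 3 ranged from 4 to 7.

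Values that passed 2-fold elsewhere were Vcam1 for day 5 against day 3 (log2 ratio 1.27 as deposited, 1.06 with quantile normalization), Sdc4 for day 14 against day 2 (1.01, quantile) and for day 3 against day 2 (-1.11, median scaling), Sdc4 for day 5 against day 2 (-1.18, median scaling), Sdc3 for day 14 against day 3 (1.10, as deposited), and with the low floor Tenm4 for day 3 against day 2 (1.48) and Calcr for day 5 against days 3 and 2 (2.26). Chodl, not measured for day 3 against day 2, was at 1.05 with the low floor. The split of all calls between higher and lower depends on the scaling. For day 3 against day 2, day 5 against day 3, day 14 against day 5 and day 14 against day 2, 78.8%, 66.1%, 60.8% and 60.7% of called genes were higher. These shares were 52.6%, 87.4%, 50.5% and 62.2% as deposited, and 20.9%, 41.0%, 48.3% and 23.5% with median scaling. For day 5 against day 2 the share was 63.4%, with 52.9% after quantile normalization and 23.1% with median scaling, and for day 14 against day 3 it was 58.6%, with 72.5% as deposited and 35.1% with median scaling.

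No paired analysis was possible because each day has 1 array, and no group keeps an array when its own is left out; comparisons of the other days stay as given. Signals near the floor limit the early values of Calcr, Chodl, Tenm4 and Cd34, which are bounds. The difference between animals was not measured.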
